A study of Homo sapiens with 4 samples.

Results

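The protocadherin genes were examined in Elf1, an embryonic stem cell (ESC) line described as naïve, in 2-D culture and in 3-D scaffolds. The members are all protein-coding genes whose GENCODE symbol starts with PCDH, chosen by name and not by any measured value. They are 66 of the 60564 genes listed and comprise 15 alpha, 16 beta and 22 gamma genes of the clusters on chromosome 5, and 13 non-clustered genes. The line had been kept on mouse feeder cells and was moved to Matrigel before it was enclosed in scaffolds. The methods of the authors do not state on which of these the sequenced 2-D cells grew. For 3-D culture, dissociated cells were enclosed in scaffolds that formed from the thiol polymer PEG-8-SH mixed with the acrylate polymer PEG-8-Acr, and stayed in them for 21 days. Both conditions used the same ESC expansion medium, which held FGF2, LIF, CHIR99021 and PD03296501. Each condition had 2 independent biological replicates of this cell line, and total RNA depleted of ribosomal RNA was sequenced with paired ends. Counts per library summed to 33833778 and 30114220 in 2-D and to 21154409 and 18276147 in 3-D.

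Protocadherins are the largest group of the cadherin superfamily of calcium-dependent adhesion molecules. The clustered genes sit in tandem, and each variable exon has its own promoter. In the alpha and in the gamma cluster the variable exons are spliced to constant exons that the genes of that cluster share, whereas the beta genes have no constant exons. In neurons a few promoters of each cluster are chosen in each cell, with CTCF and cohesin bound at the promoters and their enhancers and with DNA methylation at the promoters that stay silent, and the resulting combination gives the cell a surface identity. Non-clustered protocadherins, among them the delta-1 and delta-2 groups, act in cell sorting and axon guidance, and PCDH19 is known for a form of epilepsy. The comparison asks which protocadherins naïve ESCs transcribed and whether the 3-D scaffold changed them.

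The clusters together spanned chr5:140786136-141512977 of hg38 (GENCODE release 44), with alpha, beta and gamma genes in that order on the plus strand. The conserved promoter element of clustered protocadherins, which holds the letters CGCT, was looked for in the RefSeq promoter windows of GRCh38.p14, from 250 bases before to 50 after each start. Windows were matched by symbol for 13 alpha, 14 beta, 20 gamma and 10 non-clustered genes. The 8-base word with CGCT that most windows of a cluster held was ATGTCGCT in alpha (9 of 13 windows), GTGGCGCT in beta (13 of 14) and GCCGCTGT in gamma (11 of 20), searched on both strands and without regard to overlap with other motifs. Over all 27305 promoters of this length, 0.245% held the alpha word, 1.18% the beta word and 1.604% the gamma word. None of the 10 matched non-clustered promoters held any of the 3 words. These words were picked from the same windows, so their counts describe the clusters and test nothing. The windows of 60 bases that follow, on the plus strand and ahead of the start, show the word in capitals for genes at the low and at the high end of the levels given afterwards.
PCDHA1, chr5:140786072-140786131: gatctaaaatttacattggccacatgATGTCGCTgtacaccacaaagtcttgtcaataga
PCDHA12, chr5:140875230-140875289: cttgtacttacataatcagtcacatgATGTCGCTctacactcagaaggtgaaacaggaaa
PCDHB2, chr5:141094530-141094589: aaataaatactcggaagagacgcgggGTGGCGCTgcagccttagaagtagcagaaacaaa
PCDHB7, chr5:141172552-141172611: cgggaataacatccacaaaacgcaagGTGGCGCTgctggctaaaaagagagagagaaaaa
PCDHGA1, chr5:141330391-141330450: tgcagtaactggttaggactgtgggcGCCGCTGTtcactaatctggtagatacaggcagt
PCDHGA10, chr5:141412919-141412978: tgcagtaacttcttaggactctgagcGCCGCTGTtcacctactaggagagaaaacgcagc
PCDHGC3, chr5:141475868-141475927: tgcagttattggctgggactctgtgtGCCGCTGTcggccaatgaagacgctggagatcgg

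Levels are compared between genes as CPM (counts scaled to the TMM-normalized library size) per kb of exon that no other gene covers on the same strand, because reads in exons shared on a strand were not assigned. Of 114 genes lying wholly under own-strand exons of a gene with over 1000 counts, 99 (86.8%) had 0 counts. The lengths come from GENCODE release 44, whereas the reads were assigned with release 30. The divisor can thus differ from the length that received counts. For the alpha genes 43.4% to 78.6% and for the gamma genes 35.6% to 72.5% of the exonic bases were unshared. The counts thus speak of these bases and hardly of the constant exons. Exons on the opposite strand did not remove counts, as 0 of 285 genes wholly under such exons had 0 counts. Their counts per exonic base were a median of 1.38 times those of the gene over them (quartiles 0.698 and 2.23), and whether such counts came from separate transcripts was not tested. For instance, 1797 of the 4098 exonic bases of PCDHB2 lay under PCDHB1-AS1, which itself was at 15.3 to 17.5 CPM.

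Transcription of the clusters was low but broad. The 65 members whose values are given took between 0.0472% and 0.0499% of all counts of a library, and PCDH11Y was counted as a member without its values being given here. All 15 alpha and all 22 gamma genes had at least 7 counts in every library. By contrast, PCDHB6, PCDHB7, PCDHB8, PCDHB9, PCDH15 and PCDH20 did not pass the filter on low counts. The median level was 1.18 CPM per kb over the alpha genes, 0.280 over the beta genes, 0.727 over the gamma genes and 0.642 over 12 non-clustered genes. Ranked among 14287 tested protein-coding genes, the median percentile of level was 25.9 for the alpha, 9.33 for the beta, 19.5 for the gamma and 17.9 for the non-clustered genes.

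**Figure D1:**
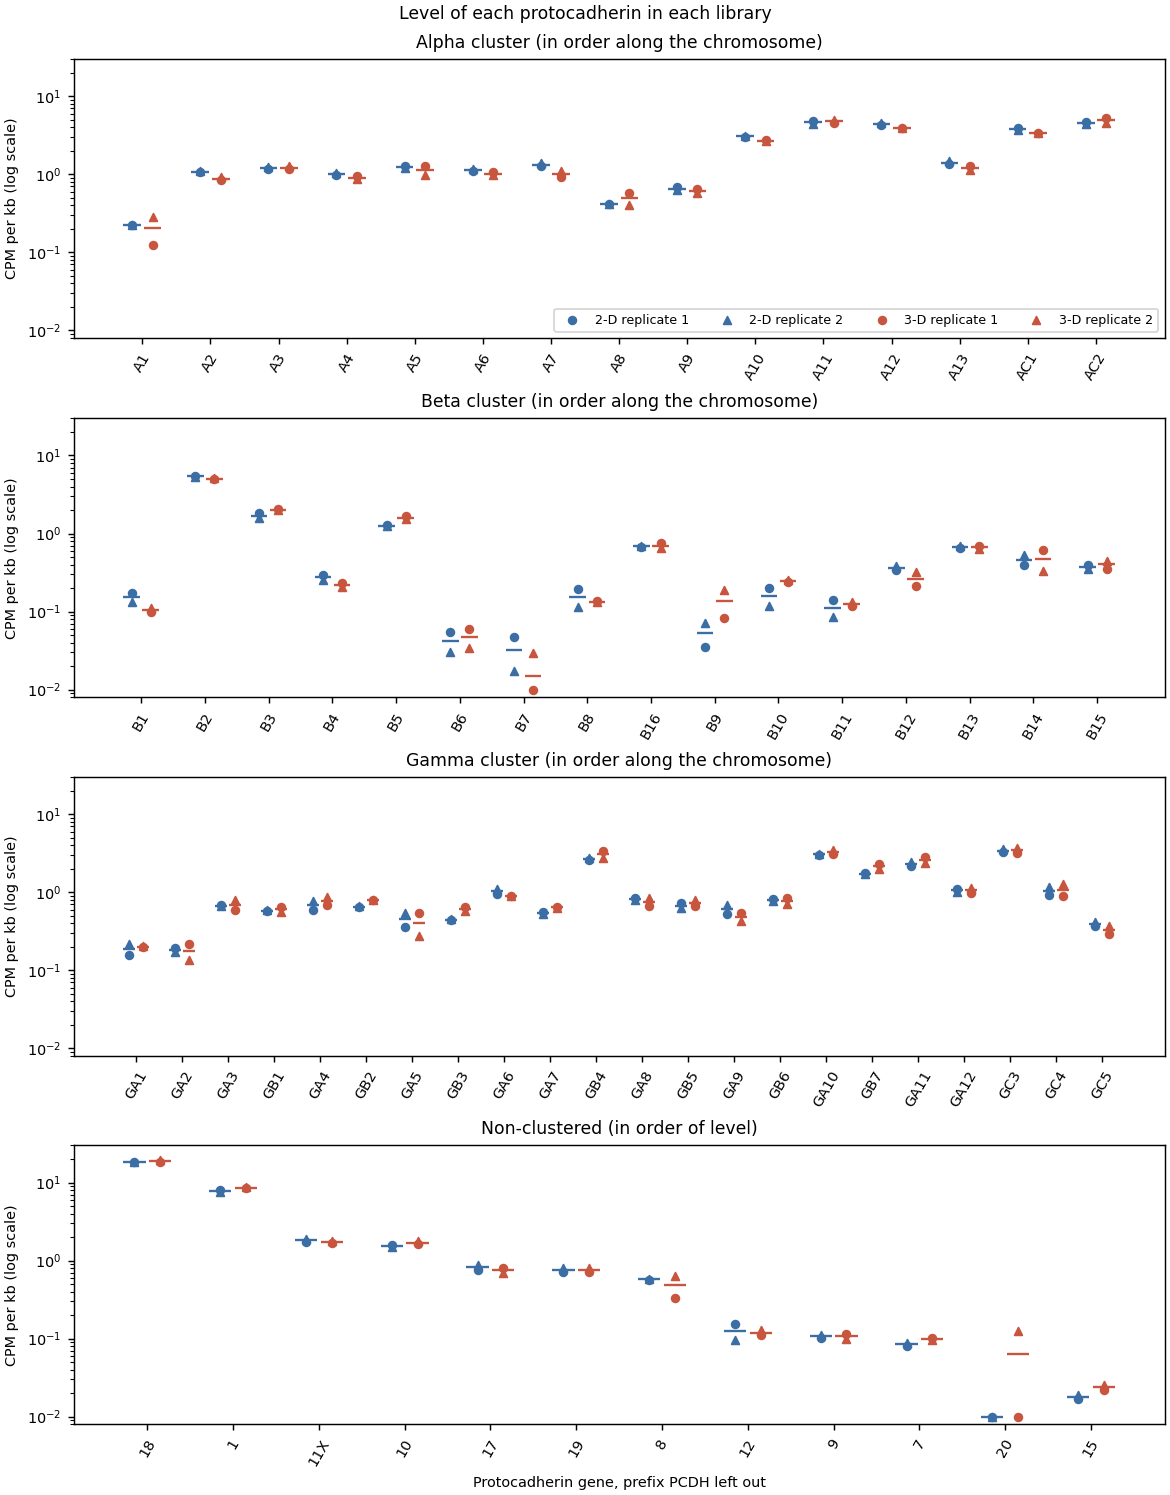
Level of each protocadherin in each library, in CPM per kb of unshared exon on a log axis, with blue for 2-D and red for 3-D, a circle for replicate 1, a triangle for replicate 2 and a line at the mean of the condition. Values below 0.01 are drawn at 0.01, and levels run from PCDH18 at 18.5 down to PCDH15 at 0.0209 CPM per kb.

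In the alpha cluster, levels were higher toward the end next to the constant exons. Spearman's rho of place along the cluster with level was 0.732 over the 15 genes, a description over genes measured in the same 4 libraries. PCDHAC2, one of the c-type genes, which stand outside the random promoter choice of the others, was the highest alpha gene at 4.66 and 4.47 CPM per kb in 2-D and 5.35 and 4.57 in 3-D. PCDHA11 was at 4.83 and 4.43 CPM per kb in 2-D and 4.55 and 5.03 in 3-D. PCDHA12 was at 4.24 and 4.56 CPM per kb in 2-D and 3.91 and 3.94 in 3-D. The ranges of PCDHAC2 and PCDHA11 overlapped over the 4 libraries, so their order was not resolved. PCDHAC1, the other c-type gene, followed at 3.600 and PCDHA10 at 2.88 CPM per kb (means over 4 libraries). By CPM alone PCDHA10 was the highest alpha gene, at 27.6 to 32.0, so its place rests on its 10355 unshared bases. PCDHAC2 had 3293 such bases, and PCDHA4 and PCDHA9, also long, had 10557 and 6900. Per kb of full exonic length the means were 2.55 for PCDHAC2, 2.52 for PCDHA11 and 2.13 for PCDHAC1. On that scale PCDHA12 was at 1.95 and PCDHA10 at 1.90. The lowest was PCDHA1 at the far end, with 21, 19, 7 and 14 counts and a mean of 0.215 CPM per kb. Of the exonic bases of PCDHA1, 48.6% lay under exons on the opposite strand. The 4 highest genes made up 58.8% of the summed level of the cluster.

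The beta cluster had the steepest inequality of the 3. PCDHB2 was at 5.46 and 5.33 CPM per kb in 2-D and 4.99 and 5.12 in 3-D, and took 45.4% of the summed beta level in 2-D and 41.4% in 3-D. Of its 100-base stretches, read on either strand, 52.0% occur in another gene with a PCDH symbol, PCDHB1-AS1 included. That share takes in the 1797 of its 4098 exonic bases under PCDHB1-AS1, which are the same place in the genome. How much is repeated elsewhere was not separated, and its counts are uncertain. The next beta genes, PCDHB3 and PCDHB5, had means of 1.86 and 1.43 CPM per kb and did not overlap with PCDHB2 in any library. At the low end, PCDHB7 had 6, 2, 0 and 2 counts and PCDHB6 had 6, 3, 4 and 2 counts. The highest and the lowest beta mean differed 223-fold, against 22.1-fold in the alpha and 19.3-fold in the gamma cluster, and the lowest beta gene had at most 6 counts in a library. Place along the cluster and level had a Spearman's rho of -0.0676 over 16 genes.

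In the gamma cluster, the c-type gene PCDHGC3 was highest, at 3.27 and 3.59 CPM per kb in 2-D and 3.16 and 3.70 in 3-D. PCDHGA10 followed at 2.97 and 3.13 CPM per kb in 2-D and 3.12 and 3.44 in 3-D, a range that overlaps with that of PCDHGC3. PCDHGB4 had a mean of 2.86, PCDHGA11 of 2.46 and PCDHGB7 of 1.94 CPM per kb. The other c-type genes were lower, PCDHGC4 at 1.061 and PCDHGC5 at 0.363 CPM per kb. The lowest gamma genes were those at the start of the cluster, PCDHGA2 at 0.178 and PCDHGA1 at 0.195 CPM per kb. Spearman's rho of place with level was 0.569 over 22 genes. Per kb of full exonic length the order of the highest gamma genes differed. On that scale the means were 2.13 for PCDHGA10, 2.05 for PCDHGC3 and 1.54 for PCDHGA11. PCDHGB7 was then at 1.09 and PCDHGB4 at 1.02 CPM per kb.

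Among the non-clustered genes, PCDH18, a delta-2 protocadherin, stood far above every other member. It was at 18.1 and 18.2 CPM per kb in 2-D and 18.3 and 19.4 in 3-D, at percentile 85.8 of the tested protein-coding genes. PCDH1, a delta-1 protocadherin of epithelia, was at 8.08 and 7.66 CPM per kb in 2-D and 8.41 and 8.80 in 3-D. The ranges of PCDH18, PCDH1 and the following PCDH11X did not overlap. PCDH11X, an X-linked delta-1 gene, had a mean of 1.77 CPM per kb, and 35.6% of its 100-base stretches occur in its Y-linked homologue, so its counts are uncertain. PCDH10, a delta-2 gene of the developing forebrain, had a mean of 1.61 CPM per kb, and PCDH17, PCDH19 and PCDH8 lay between 0.525 and 0.781. PCDH12, an endothelial and trophoblast protocadherin, was at 0.122, PCDH9 at 0.107 and PCDH7 at 0.0915 CPM per kb. PCDH15, a part of the tip link of hair cells, had 9, 9, 7 and 7 counts, and PCDH20 had 1 count in 1 of the 4 libraries, with 446 of its 5105 exonic bases unshared.

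Promoter windows of the clustered genes with more CG dinucleotides went with higher levels. The median number of CG dinucleotides in the 300 bases was 7 in the alpha, 7.5 in the beta and 7 in the gamma windows, against 14 over all 27305 promoters. Spearman's rho of the number with the level was 0.738 over 13 alpha, 0.567 over 14 beta and 0.470 over 20 gamma genes, and -0.0790 over 10 non-clustered genes. The windows within a cluster are related in sequence and were read against the same 4 libraries, so these values are a description. In the alpha cluster, the 9 windows with the word ATGTCGCT went with a median level of 1.09 CPM per kb and the 4 without it, those of PCDHA9, PCDHA11, PCDHAC1 and PCDHAC2, with 4.16. Of these, PCDHA9 held ATGTCACT and PCDHA11 held GTGTCGCT, each 1 mismatch away, and the c-type genes held nothing closer than 2 mismatches ahead of the start. PCDHA9 was nonetheless low, at 0.634 CPM per kb. The beta word was present ahead of both PCDHB2 and PCDHB7, the highest and the lowest beta gene. In the beta cluster the median was 0.388 CPM per kb with the word, and PCDHB1, which lacked it, was at 0.129. In the gamma cluster the medians were 0.783 with and 0.725 without the word, so both went the other way from alpha.

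**Figure D2:**
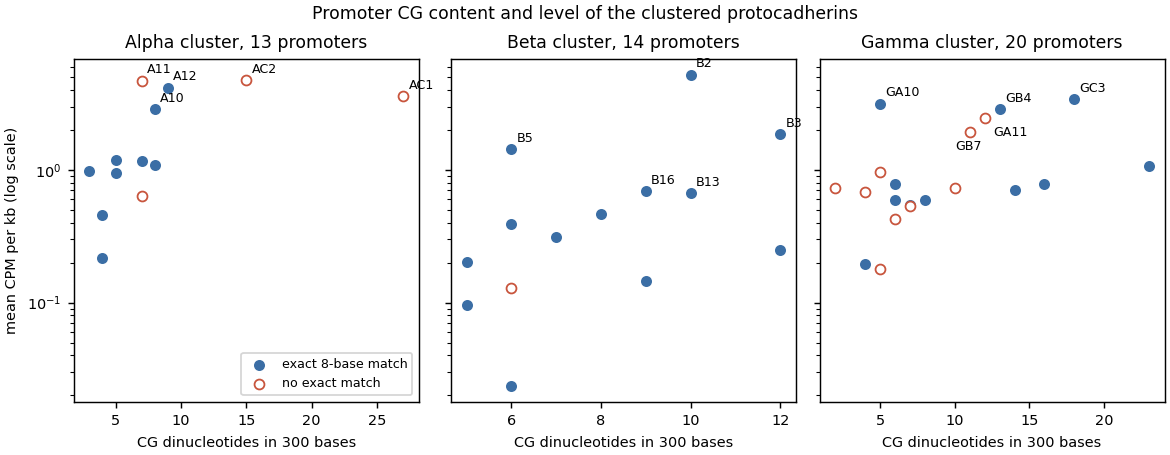
Mean level over the 4 libraries, in CPM per kb on a log axis, against the number of CG dinucleotides in the 300-base RefSeq promoter window, for 13 alpha, 14 beta and 20 gamma genes. Filled points have an exact match to the 8-base word of their cluster and open points do not, and the 5 highest genes of each cluster are labelled, with PCDHAC1 at 27 CG dinucleotides.

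The set of genes transcribed in each cluster was nearly the same in 3-D as in 2-D. Across genes, Pearson's r of log2 levels (with 0.01 CPM per kb added) between the means of the conditions was 0.993 in alpha, 0.970 in beta, 0.987 in gamma and 0.987 among non-clustered genes. Between single replicates of a condition it ran from 0.942 to 0.998 over the classes, and in each class the r between the condition means was above the r between the 3-D replicates, which are single libraries and not means. Between the 2-D replicates r was 0.998 in alpha, 0.973 in beta, 0.983 in gamma and 0.998 among non-clustered genes, above the r between conditions in all but gamma. A gene's share of the summed level of its class moved by at most 4.01 percentage points, that of PCDHB2.

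Summed over each class, CPM differed little between conditions. The alpha sum was 130.6 and 130.1 CPM in 2-D and 123.6 and 119.7 in 3-D, which gives a mean of 130.4 ± 0.360 (SD, n = 2) against 121.7 ± 2.78 (SD, n = 2). The log2 ratio of 3-D over 2-D was -0.10, beyond the spread of the replicates on that scale (0.0331), and the conditions did not overlap. The beta sum was 47.7 and 46.0 CPM in 2-D and 47.7 and 47.2 in 3-D, so the conditions overlapped, and the log2 ratio was 0.02. The gamma sum was 78.4 and 83.6 CPM in 2-D and 85.0 and 85.5 in 3-D. Its log2 ratio was 0.07 against a spread of 0.07, and the conditions did not overlap. With library size only it was 0.0097, and it ran from 0.03 to 0.12 with a library left out, lowest without 2-D replicate 1 and highest without 2-D replicate 2. The sum of 12 non-clustered genes was 227.0 and 228.1 CPM in 2-D and 229.8 and 243.3 in 3-D, with a log2 ratio of 0.06 against a spread of 0.06 and no overlap. Without 3-D replicate 1 that ratio was 0.10, without 3-D replicate 2 it was 0.01, and with library size only -0.0085. With 2 libraries against 2, an exact two-sided permutation test cannot give a p below 0.333, so these sums carry no test.

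**Figure D3:**
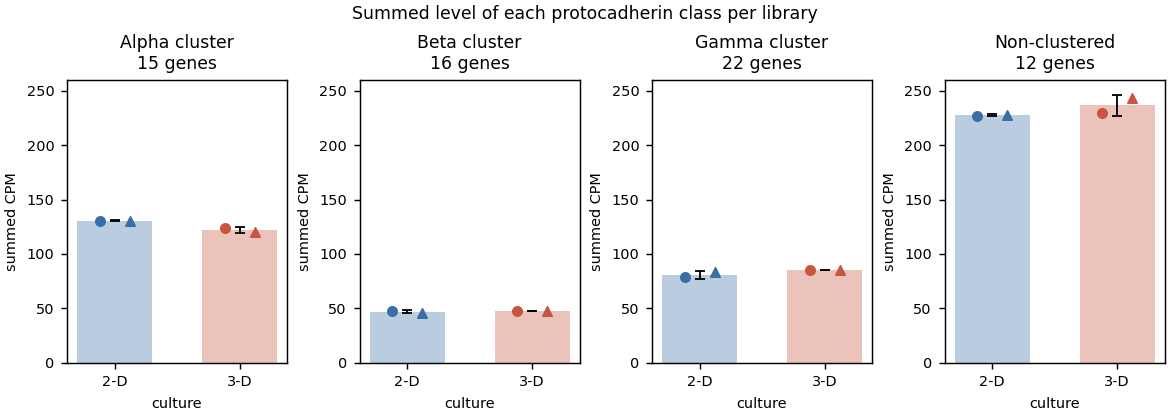
Summed CPM of each protocadherin class in 2-D (blue) and 3-D (red), where bars give the mean of 2 libraries, error bars the SD, circles replicate 1 and triangles replicate 2. The alpha sum was lower in both 3-D libraries (123.6 and 119.7) than in both 2-D libraries (130.6 and 130.1), and the log2 ratios of the other sums lay between 0.02 and 0.07.

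By gene, edgeR's quasi-likelihood test called no protocadherin at an adjusted p below 0.05. The test covered 59 members among 22555 genes, of which 7.90% were called in all. At an unadjusted p below 0.05, 5 of the 59 members passed, 8.47% of them, where 21.3% of all tested genes did. The median standard error was 0.165 for the members and 0.122 for all tested genes, so these shares are not at like precision. With DESeq2, 0 members were called and 1 had an unadjusted p below 0.05. Of the 42231 genes in that fit, 795 were called and 2114 had such an unadjusted p. DESeq2 gave no adjusted p for some members, PCDHB5 and PCDHA7 among them, so these could not be called by it. The median log2 fold change of the 59 members was -0.0022 with a range of -0.55 to 0.59, and the median of all tested genes was -0.00014. For 52 of the 59 members the 95% interval of the log2 fold change lay within 1 unit of 0, and 80.2% of all tested genes had such an interval. The members that missed this were low genes such as PCDHB10, with 12 to 23 counts per library and an interval from -0.25 to 1.42. Conditions did not overlap for 24 of 59 members, 40.7%, against 50.5% of all tested genes.

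**Figure D4:**
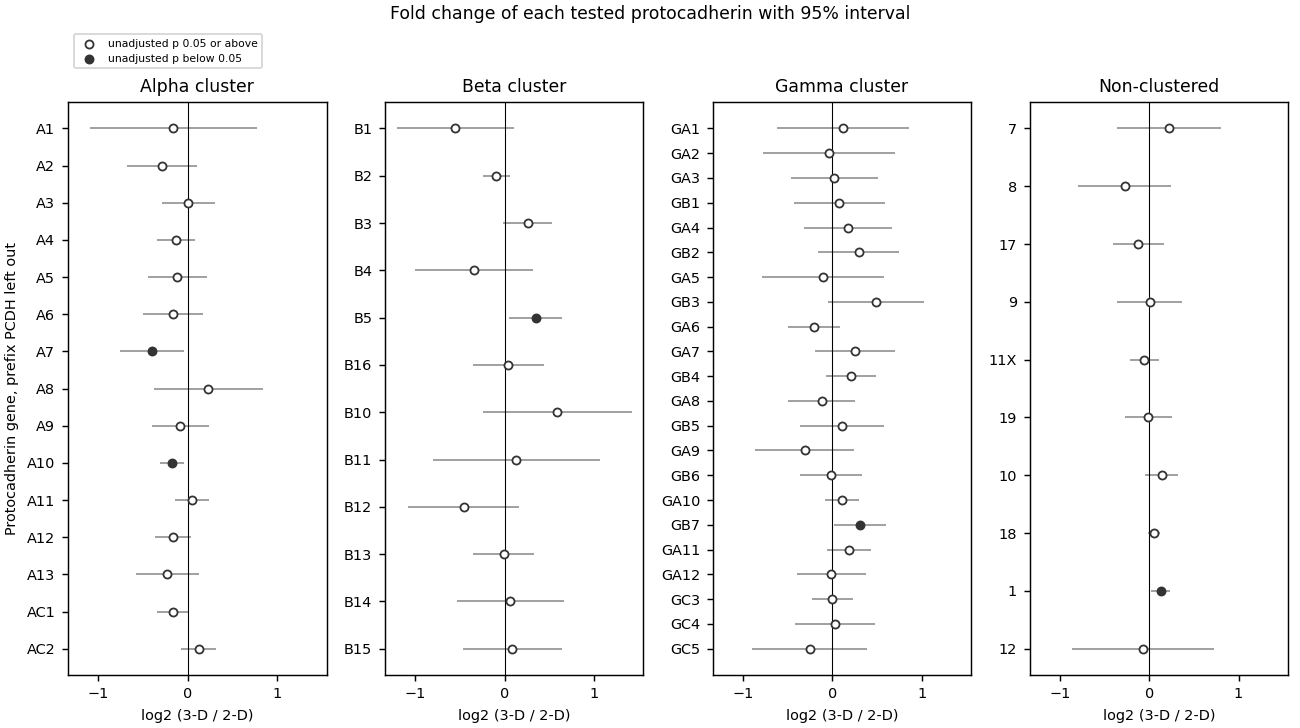
log2 fold change (3-D over 2-D) of the 59 tested protocadherins, with the 95% interval from the edgeR fit as a bar. Clustered genes are in order along the cluster, and non-clustered genes by start coordinate without regard to chromosome. Filled points mark the 5 genes with an unadjusted p below 0.05, and no gene passed an adjusted p of 0.05.

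In the alpha cluster 11 of 15 genes had a fold change below 0, with a median of -0.16. The conditions did not overlap for 8 of the 15, all of them lower in 3-D, where 25.4% of all tested genes were higher and 25.1% lower in 3-D without overlap. PCDHA10 had 31.3 and 32.0 CPM in 2-D and 28.2 and 27.6 in 3-D. Its log2 fold change was -0.18 ± 0.06 (SE), with an adjusted p of 0.108 in edgeR. PCDHA7 had 3.75 and 4.02 CPM in 2-D and 2.72 and 3.18 in 3-D, and its log2 fold change of -0.40 ± 0.16 (SE) had an adjusted p of 0.177. These are the alpha genes with an unadjusted p below 0.05. PCDHA12, at 10.98 and 11.8 CPM in 2-D and 10.1 and 10.2 in 3-D, had a log2 fold change of -0.16 ± 0.09 (SE, interval -0.37 to 0.04). PCDHAC1, at 16.3 and 15.3 CPM in 2-D and 14.2 and 13.9 in 3-D, had a log2 fold change of -0.17 ± 0.08 (SE, interval -0.35 to 0.01). For PCDHAC2 it was 0.12 ± 0.09 (SE, interval -0.07 to 0.32), and for PCDHA11 0.04 ± 0.09 (SE, interval -0.14 to 0.23), so neither of the highest alpha genes had a fold change below 0. Without the scaling of library composition (library size only), PCDHA10 passed, with a log2 fold change of -0.24, and the alpha sum had a log2 ratio of -0.16.

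In the beta cluster 7 of 12 tested genes were above 0 and 5 below. PCDHB5 had 4.33 and 4.28 CPM in 2-D and 5.69 and 5.24 in 3-D. Its log2 fold change of 0.35 ± 0.13 (SE) had an adjusted p of 0.153 in edgeR. PCDHB3 had 6.10 and 5.26 CPM in 2-D and 6.86 and 6.75 in 3-D, a log2 fold change of 0.26 ± 0.13 (SE, interval -0.01 to 0.53). PCDHB2, with 22.4 and 21.8 CPM in 2-D and 20.4 and 21.0 in 3-D, went the other way by -0.09 ± 0.07 (SE, interval -0.25 to 0.06). PCDHB16 differed by 0.04 ± 0.18 (SE). Leaving PCDHB2 out raised the log2 ratio of the beta sum from 0.02 to 0.12. The 4 beta genes that were not tested had 0 to 17 counts per library.

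In the gamma cluster 13 of 22 genes were above 0. The gamma-B genes leaned upward, with 6 of 7 above 0 and a median log2 fold change of 0.21, while the gamma-A genes were split 6 to 6 with a median of 0.00 and the c-type genes had a median of -0.0022. This division of the cluster was taken after the values were seen and has no test. The gamma-B sum was 21.3 and 21.2 CPM in 2-D and 25.9 and 22.8 in 3-D, so most of the lean came from 3-D replicate 1. PCDHGB7 had 4.94 and 4.74 CPM in 2-D and 6.42 and 5.52 in 3-D, and its log2 fold change of 0.31 ± 0.13 (SE) had an adjusted p of 0.204 in edgeR. PCDHGB4 had 6.33 and 6.75 CPM in 2-D and 8.32 and 6.69 in 3-D, so its conditions overlapped, and its log2 fold change was 0.21 ± 0.13 (SE, interval -0.07 to 0.48). PCDHGA11 differed by 0.19 ± 0.11 (SE, interval -0.06 to 0.44) and PCDHGA10 by 0.10 ± 0.09 (SE, interval -0.09 to 0.29). PCDHGC3 was at 10.6 and 11.7 CPM in 2-D and 10.3 and 12.05 in 3-D, a log2 fold change of -0.0022 ± 0.10 (SE, interval -0.23 to 0.23).

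Of the 10 tested non-clustered genes, 5 were above and 5 below 0. PCDH1 had 47.9 and 45.4 CPM in 2-D and 49.8 and 52.2 in 3-D. Its log2 fold change of 0.13 ± 0.05 (SE) had an adjusted p of 0.155 in edgeR. PCDH18, the member with the most counts, had 120.9 and 121.9 CPM in 2-D and 122.7 and 129.4 in 3-D, and its log2 fold change of 0.05 ± 0.03 (SE) had an interval of -0.02 to 0.12. PCDH10 differed by 0.14 ± 0.08 (SE, interval -0.04 to 0.32) and PCDH11X by -0.06 ± 0.07 (SE, interval -0.22 to 0.10). PCDH8 had 101, 91, 35 and 58 counts, and its 3-D libraries were at 1.70 and 3.24 CPM, and among the alternatives run it was called, as lower, in the fit without 3-D replicate 2 alone.

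Genes known to act on the choice of cluster promoters were called higher in 3-D for 8 of 19, and none was called lower, where 4.54% of all tested genes were called higher and 3.36% lower. They were the boundary factor CTCF, the cohesin subunits SMC1A and SMC3 and the cohesin loader NIPBL, the DNA methyltransferases DNMT1 and DNMT3B, the histone H3K9 methyltransferase SETDB1, and WIZ, a zinc finger partner of H3K9 methyltransferases and CTCF. DNMT3B, the methyltransferase of early embryonic cells, was at 1050 and 1052 CPM in 2-D and 1164 and 1203 in 3-D, a log2 fold change of 0.17 ± 0.03 (SE) with an adjusted p of 0.00429 in edgeR. CTCF was at 131.5 and 132.6 CPM in 2-D and 145.4 and 144.7 in 3-D, a log2 fold change of 0.14 ± 0.03 (SE) with an adjusted p of 0.0130. The 8 changes were small, from 0.13 for SMC1A to 0.29 for WIZ on the log2 scale. Over the 19 genes the median log2 fold change was 0.07, against -0.00014 over all tested genes. Their median standard error was 0.031 against 0.12 over all tested genes, so smaller changes could be called among them. The list was chosen with earlier results of these data known, so the share of called genes tests nothing. SMCHD1, which represses clustered protocadherins, was at 243.4 and 252.2 CPM in 2-D and 247.3 and 254.3 in 3-D, and the cohesin subunit RAD21 differed by 0.03 ± 0.03 (SE). The count rests on both 2-D libraries, since leaving out 2-D replicate 1 gave 4 called genes and leaving out 2-D replicate 2 gave 1, and the count was 3 with edgeR's likelihood ratio test, 6 with DESeq2 and 4 with library size only.

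Of 22 genes for partners, signalling and proteolytic processing of protocadherins, CDH2 was called, where 7.90% of all tested genes were called. CDH2, N-cadherin, with which some protocadherins form complexes, was at 137.9 and 139.8 CPM in 2-D and 148.6 and 152.3 in 3-D, a log2 fold change of 0.12 ± 0.03 (SE) with an adjusted p of 0.0340 in edgeR. The call was lost with DESeq2, with the likelihood ratio test and without either 2-D library, at log2 fold changes of 0.11 to 0.13, and with library size only, where it was 0.05 and 3 other partner genes were called, all lower. ADAM10, the sheddase that cuts gamma protocadherins, had a log2 fold change of -0.08 ± 0.03 (SE) with an adjusted p of 0.169, and PTK2, the focal adhesion kinase inhibited by protocadherins, of -0.08 ± 0.03 (SE) with an adjusted p of 0.173. All 22 were tested, and their median log2 fold change was 0.03.

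Of 27 other protein-coding genes within 500 kb of the clusters, 22 were tested and 2 were called, where 7.90% of all tested genes were called. IK, a splicing factor, rose from 79.5 and 73.2 CPM in 2-D to 98.0 and 96.3 in 3-D, a log2 fold change of 0.35 ± 0.04 (SE) with an adjusted p of 0.000308 in edgeR. NDUFA2, a subunit of respiratory complex I, fell from 25.2 and 23.1 CPM to 19.6 and 17.5, with a log2 fold change of -0.38 ± 0.08 (SE) and an adjusted p of 0.0122. The call of NDUFA2 was lost without 2-D replicate 1, which left 1 called neighbour, and without 3-D replicate 2 there were 4. DELE1, a mitochondrial stress gene, had a log2 fold change of -0.20 ± 0.08 (SE) with an adjusted p of 0.140. TAF7, a subunit of the basal transcription factor TFIID whose gene lies between the beta and gamma clusters, was at 91.6 and 92.6 CPM in 2-D and 93.7 and 86.2 in 3-D. The median log2 fold change of the 22 genes was -0.01.

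Marker genes of the labelled and of other cell types were read in the same libraries, where 7.90% of all tested genes were called. Of 10 naïve or pluripotency markers, POU5F1, NANOG and SOX2 were at 108.5 to 258.2 CPM in every library, and none of the 9 tested was called. At an unadjusted p below 0.05 in edgeR, 3 of the 9 passed, where 21.3% of all tested genes did. These were NANOG, SOX2 and SUSD2, all higher in 3-D, and of the 9 genes 6 were above 0 and 3 below. Of the naïve markers TFCP2L1 was at 22.1 to 23.8 CPM, DNMT3L at 14.6 to 17.9, KLF4 at 9.26 to 10.4, SUSD2 at 6.36 to 8.42 and DPPA3 at 5.75 to 7.43, whereas KLF17 and DPPA5 were at most at 1.07 and 0.130 CPM. Summed over the list the level was 593.5 to 597.6 CPM in 2-D and 618.0 to 648.8 in 3-D. Of 8 neural markers, the tissue in which protocadherin choice is best known, 5 were tested and none was called, their sum was 17.6 to 19.0 CPM in 2-D and 17.5 to 18.8 in 3-D, NEUROD1 was at 0 in all libraries, and NEUROG2 and SOX1 were at no more than 0.167 CPM. Of 5 endothelial markers 3 were tested and none was called, with sums of 167.6 to 168.7 CPM in 2-D and 174.5 to 178.1 in 3-D, where KDR gave most and PECAM1 and CDH5 were at most at 0.0558 and 0.232 CPM. Of 7 fibroblast markers 5 were tested and COL1A1, COL3A1 and THY1 were called higher, where 4.54% of all tested genes were. COL1A2, the member with the highest CPM, had a log2 fold change of -0.04 ± 0.04 (SE) and PDGFRB of 0.02 ± 0.13 (SE). The list had sums of 528.9 to 537.0 CPM in 2-D and 546.4 to 595.4 in 3-D, and DCN and LUM were at most at 0.195 and 0.948 CPM. Their part in the protocadherin values was not tested.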

How the data were processed

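RNA of 2-D and 3-D grown Elf1 cells was measured by RNA-seq. The authors prepared libraries with the KAPA RNA HyperPrep kit with RiboErase, trimmed reads with Trim Galore 0.6.3, mapped them to hg38 with HISAT2 2.1.0 and assigned them to genes of GENCODE release 30 with featureCounts 1.6.4. For each library the deposited file lists raw counts per gene without normalization. Strand and multimapping settings are not given in the sources used here. A further deposited table, with the same counts scaled and the authors' DESeq2 comparison (fold changes, standard errors, Wald statistics and p-values), was not used.

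Symbols, exon lengths and positions came from GENCODE release 44, and 269 of 60564 identifiers, with 0.122% of counts, had no match. Counts were fitted with edgeR 4.0.16 (R 4.3.3; TMM, filter on low counts, quasi-likelihood test, condition alone), with Benjamini-Hochberg adjustment over 22555 genes and a threshold of 0.05. Standard errors are the size of the log2 change over the square root of F. Alternatives were the likelihood ratio test, DESeq2 1.42.0, its size factors, library size only, other filters, a replicate block, a GC content offset and leaving out each library. Named are the 4 tested members with the highest level in each class, those with an unadjusted p below 0.05 and the called genes of the lists, or their 3 lowest p, and other members by level. The procedures were tested on simulated data. Counting error of a gene falls with its counts, and totals per library ran from 18276147 to 33833778. Members and lists were chosen with earlier results of these data known.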

Additional observations from a re-analysis of the deposited data

How the results depend on the processing

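Over all tested genes 1782 were called (1024 higher), and 1139 with the likelihood ratio test, 795 with DESeq2, 2393 with library size only (514 higher) and 974 to 2643 when leaving out each library. No protocadherin was called except 1 with library size only (PCDHA10), 1 without a filter on low counts and 0 to 2 when leaving out each library. Called regulators numbered 3 with the likelihood ratio test, 4 with library size only and 1 to 8 with a library left out. Called partners numbered 0 with the likelihood ratio test and with DESeq2, 3 with library size only and 0 to 2 with a library left out, and called neighbours 1 to 4. Library size only gave log2 ratios of -0.16 for the alpha sum, -0.044 for the beta sum and -0.0085 for the non-clustered sum, the last 2 with the sign turned, and log2 fold changes of -0.019 for PCDHA11, -0.025 for PCDHB16 and -0.011 for PCDH18, also turned. The beta sum had 0.12 without its member with the most counts and -0.0067 to 0.047 with a library left out. Leaving out a library gave ranges of -0.026 to 0.12 for PCDHA11, -0.058 to 0.13 for PCDHB16 and -0.12 to 0.11 for PCDHGC3. The cause of these shifts was not tested.

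The sample titles do not say whether the replicate numbers pair the samples. Deviations of same-numbered libraries correlated at -0.0075 over all tested genes and at -0.116 over genes above 8 CPM. With 2 libraries per condition these values cannot settle whether samples were paired. A fit with the replicate block called 2167 genes and 0 protocadherins, and with a GC content offset as well 2645 and 0. The number of called regulators was then 8 and 9. Depth limits the low members, since 7 of 59 intervals reached beyond 1 log2 unit.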

Other observations

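The pseudogene PCDHGB8P, which lies among the gamma genes, was at 2.90 and 1.91 CPM in 2-D and 2.29 and 2.18 in 3-D, a level near that of several gamma protein-coding genes, with a log2 fold change of -0.12 ± 0.23 (SE). PCDHGB9P was at 0.837 to 1.16 CPM. The pseudogenes PCDHB17P, PCDHB18P and PCDHA14 have no exonic base that is unshared on their strand, and PCDHB19P has 198 of 2371, so their counts near 0 say nothing of their transcription. PCDHB1-AS1, antisense to PCDHB2, was at 15.3 to 17.5 CPM over 3126 bases unshared on its own strand. Its log2 fold change was -0.0065 ± 0.09 (SE). Of these bases, 1797 lie under exons of PCDHB2, and whether its counts came from a separate transcript was not tested. PCDH10-DT, divergent to PCDH10, was at 0.617 to 1.06 CPM.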
